A study of Arabidopsis thaliana with 12 samples.

Results

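Seedlings of *Arabidopsis thaliana* carried a *MUTE* transgene, unchanged in the line MUTE and changed in the others. Of the 23071 genes in the table, 22 were expressed in steps across 3 lines, lowest in MUTE, intermediate in MUTEv5#2 and highest in MUTEv5#5. They were chosen from the deposited counts by a fixed rule on CPM (counts scaled to a common library total, with TMM, the trimmed mean of M-values). Every MUTE library had to lie below every MUTEv5#2 library, and every MUTEv5#2 library below every MUTEv5#5 library. The MUTEv5#5 mean had to reach 1 CPM and 1.5 times the MUTE mean. The stomatal genes *MUTE*, *SPCH*, *SCRM*, *TMM*, *BASL*, *POLAR*, *EPF2* and *ERL1* were left out by name. Because the levels in MUTE, MUTEv5#2 and MUTEv5#5 chose the genes, they are given as a description and without a test. Levels in the line MUTEPPP#3 had no part in the choice, but in each comparison with MUTEPPP#3 the other line did. For a single gene, higher values against MUTE and lower values against MUTEv5#5 thus follow in part from the choice. The fold changes and p-values given below for the genes are to be read with that limit.

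All 4 lines are homozygous transgenic plants in the *mute-3* mutant background, with the transgene under the *MUTE* promoter, so the controls carry the mutation and a transgene as well. Line 1, called MUTE, makes the unchanged protein. MUTEv5#2 and MUTEv5#5 are lines 2 and 5 of a single allele, R10W, which the submitters picked for moderate stomatal clustering and for severe arrest of lineages. MUTEPPP#3 is line 3 of an allele with H3P, E7P and R11P. The numbering of residues is that of the submitters. Each library came from a pool of 50 whole seedlings harvested 2 days after germination, in 3 biological replicates for each line, 12 libraries in total. Seedlings of all 4 lines grew at 21 °C with 16 h of light, 8 h of dark and 1% sucrose. MUTE and the PPP allele are each represented by a single line, so an effect of the allele cannot be told apart from that of its line or insertion site.

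MUTE is a basic helix-loop-helix (bHLH) transcription factor of the leaf epidermis. In the stomatal lineage, SPCH with its partner SCRM starts asymmetric divisions that renew the lineage, and MUTE ends this phase and turns a meristemoid into a guard mother cell, which divides into the guard cells. bHLH proteins bind DNA as dimers through their basic region, usually at the E-box, written CANNTG.

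Library totals ran from 117868477 to 152600239 counts, and the lowest value of any gene in any library was 1. Counts of ribosomal and organelle genes made up 0.397% to 2.92% of a library. Of the genes in the table, 22636 passed the filter on low counts, all 22 stepwise genes among them. Summed genes of photosynthesis and mesophyll reached 105815 to 152592 CPM and those of root cell types 249 to 348 CPM, so that shoot and root markers were both present in these whole seedlings. In such bulk libraries a change in the number of cells of a type and a change in RNA per cell cannot be told apart. The replicates are labelled as independent, and p-values measure the spread between these pools.

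Order alone was met by 64 genes, 0.283% of those tested, and the reverse order by 101 genes, 0.446%. Of the 64, 61 reached 1 CPM and 26 also reached the fold. *MUTE*, *TMM*, *SCRM* and *POLAR* met the whole rule and were removed by name, which left 22; *SPCH*, *BASL*, *EPF2* and *ERL1* would not have met it. The mirrored rule, with levels falling in steps, held 39 genes. The *MUTE* transcript itself, which joins transgene and endogenous locus, averaged 5.31 CPM in MUTE and 5.89 in MUTEPPP#3, and 10.7 and 18.6 in MUTEv5#2 and MUTEv5#5.

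The ratio of the MUTEv5#5 mean to the MUTE mean ran from 1.51 to 24.2, with a median of 1.98, and 11 of the 22 genes reached a ratio of 2. In 13 genes the larger ratio was that of MUTEv5#2 over MUTE, and in 9 that of MUTEv5#5 over MUTEv5#2. Of the 22, 19 are annotated as protein-coding and 3 as pseudogenes. They lie on chromosomes 1 (7 genes), 3 (6 genes), 4 (4 genes) and 5 (5 genes), and the closest neighbours among them, *AT5G01445* and *AT5G01210*, are 95546 bases apart.

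**Figure D1:**
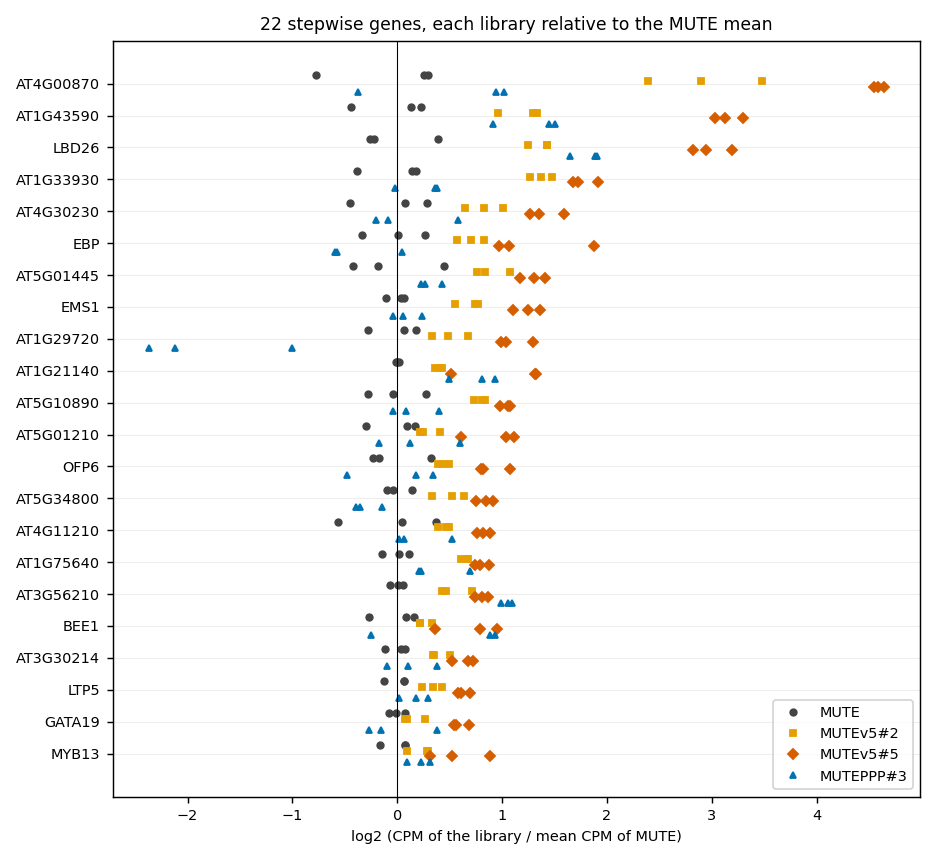
Level of each of the 22 stepwise genes in each of the 12 libraries, as log2 of the library's CPM over the mean CPM of MUTE (horizontal axis), with genes ordered by the ratio of MUTEv5#5 to MUTE. Every symbol is a library. All MUTEPPP#3 libraries lay below every MUTEv5#5 library in 18 of the 22 genes and above every one in 1, AT3G56210. Of all 22636 genes tested, they lay below in 4079 and above in 3460. High MUTEv5#5 levels were part of the rule, so the lower position follows in part from the choice.

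The steps were narrow for some genes. In 8 of them the highest library of the lower line and the lowest library of the higher line were under 5% apart at either step, and the narrowest gaps were 0.0838% in *GATA19*, 0.816% in *AT4G11210* and 0.927% in *MYB13*. Just inside the fold threshold were *MYB13* and *GATA19*, both at a ratio of 1.51, and just outside it *E12A11* at 1.49 and *AT2G15440* at 1.48. Just inside the level threshold were *AT4G00870* and *AT1G21140*, with MUTEv5#5 means of 1.13 and 1.20 CPM, and outside it *AT1G04570* at 0.624 and *AT5G08460* at 0.604 CPM.

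With replicate 1, 2 or 3 left out of all 3 lines, the rule gave 112, 59 and 48 genes, with 21, 20 and 21 of the 22 among them. A rule with fewer libraries is looser, so these counts are a description of how many further genes each replicate number kept out.

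Transcription factors and regulators were the largest group with an annotated function, with 7 of the 22 genes. *AT4G00870* (chromosome 4, 361933 to 363709, minus strand of TAIR10.1), annotated as a bHLH DNA-binding protein, had the largest ratio of all. It stood at 0.0558, 0.0574 and 0.0274 CPM in MUTE, 0.522, 0.247 and 0.350 in line MUTEv5#2, 1.17, 1.13 and 1.10 in line MUTEv5#5 and 0.0953, 0.0361 and 0.0901 in line MUTEPPP#3. Its counts per library ran from 3 to 181, so the MUTE level rests on few reads and the ratio of 24.2 is imprecise. MUTEPPP#3 overlapped MUTE and lay under every library of both MUTEv5 lines. By edgeR's quasi-likelihood test with Benjamini-Hochberg adjustment over all genes, the log2 fold change of MUTEPPP#3 was -2.31 against MUTEv5#2 (adjusted p = 0.0172, SE 0.38) and -3.91 against MUTEv5#5 (adjusted p = 9.19e-04, SE 0.39). Against MUTE the difference was 0.63 (95% interval -0.37 to 1.63, adjusted p = 0.335). The call against MUTEv5#2 was lost without MUTEv5#2 replicate 1, without MUTEPPP#3 replicate 2 or 3, and with only the compared lines in the fit.

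*LBD26* (chromosome 3, 10373251 to 10376480, plus strand) belongs to the LOB domain family of plant transcription factors, whose founding members mark the boundaries of lateral organs. It stood at 0.363, 0.373 and 0.567 CPM in MUTE, 1.03, 1.17 and 1.17 in line MUTEv5#2, 3.97, 3.06 and 3.35 in line MUTEv5#5 and 1.36, 1.61 and 1.63 in line MUTEPPP#3. Here MUTEPPP#3 did not go with MUTE: its libraries lay above all of MUTE and of MUTEv5#2 and below all of MUTEv5#5. *LBD26* rose in MUTEPPP#3 over MUTE, with a log2 fold change of 1.82 (adjusted p = 5.13e-04 by edgeR, SE 0.20), and was lower than in MUTEv5#5, at -1.17 (adjusted p = 0.00416, SE 0.19). Against MUTEv5#2 the difference was 0.45 (95% interval 0.04 to 0.87, adjusted p = 0.200).

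The 250 bases before the annotated gene start are shown for *AT4G00870* and *LBD26*, the protein-coding genes with the largest ratios, for *BEE1*, the other bHLH gene, and for *EMS1*, the receptor kinase described below. They are read 5′ to 3′ in the direction of the gene from the TAIR10.1 assembly of RefSeq, with every match to CANNTG in capitals. The windows are chr4:363710-363959 on the minus strand, chr3:10373001-10373250, chr1:6331148-6331397 and chr5:2284580-2284829 on the plus strand, in the order printed.
AT4G00870: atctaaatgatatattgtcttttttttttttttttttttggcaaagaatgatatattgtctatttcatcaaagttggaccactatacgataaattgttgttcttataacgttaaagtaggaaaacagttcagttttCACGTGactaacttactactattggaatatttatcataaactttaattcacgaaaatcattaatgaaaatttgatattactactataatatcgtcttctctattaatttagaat
LBD26: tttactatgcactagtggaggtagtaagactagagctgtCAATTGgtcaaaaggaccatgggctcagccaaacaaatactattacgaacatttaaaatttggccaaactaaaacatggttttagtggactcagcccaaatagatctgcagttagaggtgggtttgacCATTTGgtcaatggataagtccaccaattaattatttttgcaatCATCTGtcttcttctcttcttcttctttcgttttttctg
BEE1: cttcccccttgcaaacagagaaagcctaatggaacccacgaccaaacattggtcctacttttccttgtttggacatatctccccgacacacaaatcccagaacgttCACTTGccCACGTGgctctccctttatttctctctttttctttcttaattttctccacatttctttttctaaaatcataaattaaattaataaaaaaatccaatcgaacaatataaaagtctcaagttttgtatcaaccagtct
EMS1: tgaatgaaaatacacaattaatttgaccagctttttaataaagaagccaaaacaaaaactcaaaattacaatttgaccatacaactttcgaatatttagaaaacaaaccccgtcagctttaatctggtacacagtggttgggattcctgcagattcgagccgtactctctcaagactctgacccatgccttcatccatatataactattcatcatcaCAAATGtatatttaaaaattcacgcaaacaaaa

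A CANNTG match was in this window of 15 of the 22 genes (68.2%) and of 56.3% of 22506 nuclear genes tested, searched on both strands. The palindrome CACGTG, a form of CANNTG and known as the G-box, was in 2 of the 22 (9.09%), *AT4G00870* and *BEE1*, and in 6.98% of all windows. In *AT4G00870* it starts 114 bases before the gene start and is its only match; *LBD26* has 3 matches, at 211, 83 and 39 bases, and *EMS1* has 1, at 33 bases. AACGG, the core of a MYB site, was in 6 of the 22 (27.3%) and in 21.6% of all windows. Of the other motifs searched, TGGGCC was in 3 windows (13.6%, all genes 15.7%) and TGGGCT in 2 (9.09%, all genes 13.8%). TTTNNCGC, TAAATGTA and AAAATATCT were in 1 window each (4.55%, against 5.92%, 2.99% and 2.35% of all genes), and AAACCCTA was in 0 against 3.8%. These are matches of letters and say nothing of binding.

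*EBP* (chromosome 3, 5705541 to 5707084, plus strand), also named *RAP2.3* and *ERF72*, encodes an ethylene response factor of the group that is unstable in oxygen and activates genes of low-oxygen metabolism. It stood at 56.9, 37.3 and 47.5 CPM in MUTE, 83.8, 76.8 and 69.9 in line MUTEv5#2, 173, 92.3 and 98.7 in line MUTEv5#5 and 48.7, 31.6 and 31.2 in line MUTEPPP#3. MUTEv5#5 replicate 1 stood far above the other libraries of its line. In MUTEPPP#3 *EBP* was below its MUTEv5#5 level, with a log2 fold change of -1.71 (adjusted p = 0.00361 by edgeR, SE 0.26). Its differences from MUTEv5#2 (-1.05, 95% interval -1.62 to -0.48, adjusted p = 0.0605) and from MUTE (-0.35, interval -0.91 to 0.22, adjusted p = 0.348) were not called. The difference from MUTEv5#2 was called in 5 of 20 alternatives, among them DESeq2 (adjusted p = 0.00376). The list of 13 hypoxia genes did not follow the steps of *EBP*. Its summed level was 77.7 to 138 CPM in MUTE, 284 to 295 in MUTEv5#2, 105 to 233 in MUTEv5#5 and 144 to 157 in MUTEPPP#3. Of the list, 5 rose and 0 fell in MUTEv5#2 over MUTE (median log2 fold change 1.17, all genes 0.00), where 1.48% of all genes were called higher and 3.55% lower. With library totals as the only scaling 9 of the 13 rose. In MUTEv5#5 over MUTE 0 of the 13 were called (median 0.50, all genes -0.01), where 0.314% of all genes were higher and 0.725% lower. The part of low-oxygen conditions in the *EBP* levels was not tested.

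The remaining regulators had small ratios. *BEE1*, a bHLH gene that responds early to brassinosteroid, held 13.1, 13.9 and 10.3 CPM in MUTE, 14.4, 14.4 and 15.6 in line MUTEv5#2, 24.0, 21.4 and 15.9 in line MUTEv5#5 and 22.9, 23.6 and 10.4 in line MUTEPPP#3. Its MUTEPPP#3 libraries ran from 10.4 to 23.6 CPM, most of the range of the other 3 lines (10.3 to 24.0 CPM), and it was called in no comparison with that line (against MUTE 0.61, 95% interval 0.02 to 1.20, adjusted p = 0.121). Without MUTEPPP#3 replicate 3 it was called higher than in MUTE, at 0.90 (adjusted p = 0.00904). *OFP6*, of the OVATE family of transcriptional repressors, averaged 0.965 CPM in MUTE, 1.31 in line MUTEv5#2, 1.81 in line MUTEv5#5 and 1.00 in line MUTEPPP#3. *GATA19*, a relative of the boundary regulator HANABA TARANU and also named *HANL2*, averaged 0.976, 1.08, 1.48 and 0.986 CPM in the same order. *MYB13*, an R2R3-MYB factor, averaged 4.01, 4.70, 6.05 and 4.65 CPM. *OFP6*, *GATA19* and *MYB13* in MUTEPPP#3 differed from MUTE by 0.05, 0.01 and 0.21 on the log2 scale, all uncalled.

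**Figure D2:**
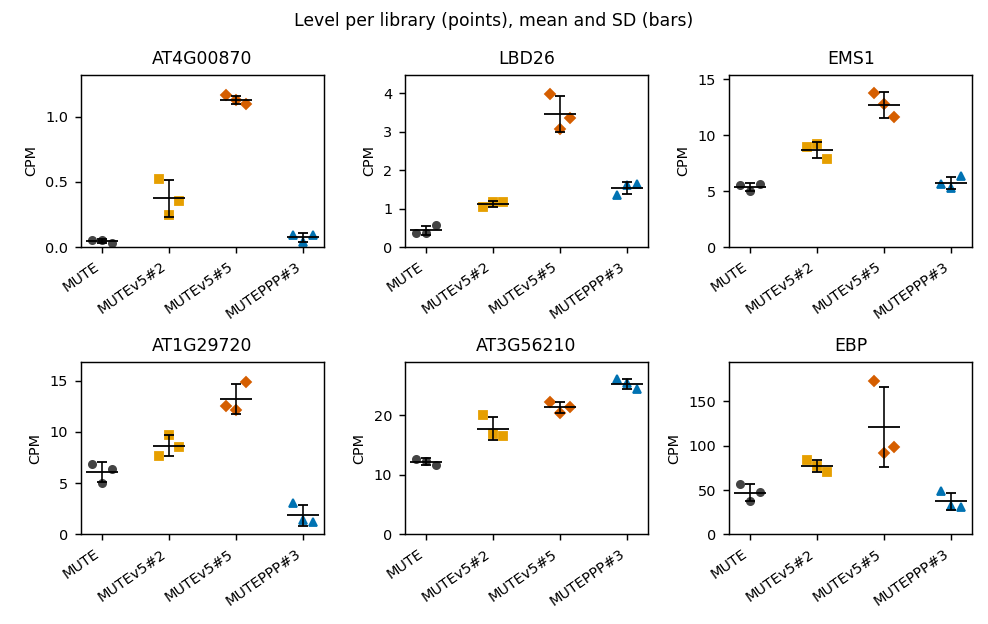
CPM (vertical axis, from 0) of 6 stepwise genes in each library of the 4 lines; points are libraries, horizontal bars means and whiskers the SD of 3 libraries. MUTEPPP#3 stands near MUTE for AT4G00870 and EMS1, between the MUTEv5 lines for LBD26, lowest for AT1G29720 and highest for AT3G56210.

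Leucine-rich repeat receptor kinases, membrane proteins that read extracellular peptides and hormones, made up 3 of the 22 genes. *EMS1* (chromosome 5, 2284830 to 2288855, plus strand), also *EXS*, is known as the receptor that specifies the tapetum in anthers. It stood at 5.53, 5.00 and 5.62 CPM in MUTE, 8.98, 9.20 and 7.86 in line MUTEv5#2, 13.8, 12.8 and 11.6 in line MUTEv5#5 and 5.60, 5.24 and 6.32 in line MUTEPPP#3. MUTEPPP#3 overlapped MUTE and was apart from both MUTEv5 lines. The log2 fold change of MUTEPPP#3 was 0.09 against MUTE (95% interval -0.16 to 0.33, adjusted p = 0.597, edgeR), -0.60 against MUTEv5#2 (SE 0.11, adjusted p = 0.0242) and -1.15 against MUTEv5#5 (SE 0.11, adjusted p = 9.19e-04). The call against MUTEv5#2 was lost in 5 of 20 alternatives, among them library totals as the only scaling.

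*AT1G75640* (chromosome 1, 28403371 to 28407182, minus strand) held 8.16, 9.79 and 9.15 CPM in MUTE, 14.4, 14.3 and 13.8 in line MUTEv5#2, 15.1, 15.6 and 16.6 in line MUTEv5#5 and 10.6, 10.4 and 14.6 in line MUTEPPP#3. The larger part of its rise lay between MUTE and MUTEv5#2, with a ratio of 1.57, against 1.11 between the MUTEv5 lines. It was higher in MUTEPPP#3 than in MUTE by 0.39 (SE 0.13, adjusted p = 0.0435), a call that 9 of 20 alternatives lost; without MUTEPPP#3 replicate 3 the difference was 0.22 (adjusted p = 0.134). *AT1G29720* (chromosome 1, 10393659 to 10399873, minus strand) was the gene in which MUTEPPP#3 went furthest below MUTE. It held 6.87, 5.00 and 6.36 CPM in MUTE, 7.67, 9.73 and 8.52 in line MUTEv5#2, 12.5, 12.1 and 14.9 in line MUTEv5#5 and 3.03, 1.40 and 1.18 in line MUTEPPP#3. Its log2 fold change in MUTEPPP#3 was -1.70 against MUTE (adjusted p = 0.00361 by edgeR, SE 0.30), -2.20 against MUTEv5#2 (adjusted p = 0.00975) and -2.81 against MUTEv5#5 (adjusted p = 0.00121). The fall from MUTE was called in all 20 alternatives, and every MUTEPPP#3 library was below every other library.

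Genes of transport, lipid and cell wall metabolism followed. *LTP5* (chromosome 3, 19138338 to 19139423, minus strand), a small secreted lipid transfer protein, was the most abundant of the 22 also per length, at a level of 399 CPM per kilobase of exon in MUTEv5#5. It held 232, 264 and 264 CPM in MUTE, 340, 320 and 299 in line MUTEv5#2, 386, 409 and 377 in line MUTEv5#5 and 311, 286 and 256 in line MUTEPPP#3. MUTEPPP#3 overlapped MUTE and MUTEv5#2 and was below MUTEv5#5, with a log2 fold change of -0.46 (adjusted p = 0.0115, SE 0.09). *AT1G21140*, named *VTL1* for its likeness to vacuolar iron transporters, held 0.565, 0.553 and 0.558 CPM in MUTE, 0.750, 0.718 and 0.742 in line MUTEv5#2, 1.40, 1.39 and 0.799 in line MUTEv5#5 and 0.788, 1.07 and 0.979 in line MUTEPPP#3. Its level was above MUTE in every library of the other 3 lines, and in MUTEPPP#3 it was higher by 0.76 (SE 0.22, adjusted p = 0.0318), a call lost in 7 of 20 alternatives. In a list of 10 iron deficiency genes, 7 fell and 0 rose in MUTEPPP#3 against MUTE (median -0.97, all genes 0.00), where 13.9% of all genes were lower. In MUTEv5#2 4 fell and 0 rose (median -1.08, all genes 0.00), where 3.55% of all genes were lower. In MUTEv5#5 3 fell and 0 rose (median -1.07, all genes -0.01), where 0.725% were lower, and with the replicate number as a block 1 fell.

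*AT5G01210* (chromosome 5, 84474 to 86275, plus strand), an acyltransferase of the HXXXD type, averaged 54.4 CPM in MUTE, 66.6 in line MUTEv5#2, 104 in line MUTEv5#5 and 63.3 in line MUTEPPP#3, and its log2 fold change in MUTEPPP#3 against MUTEv5#5 was -0.72 (adjusted p = 0.0361), a call lost in 8 of 20 alternatives. A long noncoding RNA on the opposite strand, *AT5G01215*, overlaps it over 1785 bases and averaged 1.51, 1.33, 1.37 and 3.52 CPM in the same order of lines; whether the counting used strand is not given in the sources used here. *AT4G11210*, annotated as a dirigent-like protein of lignan synthesis, averaged 3.45, 4.71, 6.10 and 4.01 CPM. In MUTEPPP#3 the dirigent-like gene differed from MUTE by 0.22 and from MUTEv5#5 by -0.61 on the log2 scale, neither of them called (adjusted p = 0.490 and 0.0754 by edgeR). The difference from MUTEv5#5 was called in 5 of 20 alternatives, among them DESeq2 (adjusted p = 0.0383).

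*AT3G56210* (chromosome 3, 20852380 to 20855610, minus strand), an ARM repeat protein, was the gene of the 22 with MUTEPPP#3 at the top. It held 12.7, 12.3 and 11.6 CPM in MUTE, 20.0, 16.8 and 16.4 in line MUTEv5#2, 22.2, 20.4 and 21.3 in line MUTEv5#5 and 26.0, 25.4 and 24.3 in line MUTEPPP#3. The log2 fold change of MUTEPPP#3 was 1.05 over MUTE (SE 0.09, adjusted p = 2.90e-04, edgeR) and 0.51 over MUTEv5#2 (SE 0.09, adjusted p = 0.0205), and 0.24 over MUTEv5#5 (95% interval 0.05 to 0.44, adjusted p = 0.0838). The rise over MUTE was called in all 20 alternatives and that over MUTEv5#2 in 15. A stretch with 86.1% identity to 48% of its exonic bases lies in the noncoding gene *AT4G04223*, so reads may be shared. *AT1G33930*, a GTP-binding protein with an AIG1 domain, held 1.30, 1.87 and 1.93 CPM in MUTE, 4.40, 4.08 and 4.74 in line MUTEv5#2, 5.63, 6.42 and 5.42 in line MUTEv5#5 and 2.18, 1.67 and 2.21 in line MUTEPPP#3. Like *EMS1* it overlapped MUTE in MUTEPPP#3 (0.25, 95% interval -0.13 to 0.63, adjusted p = 0.315) and was lower than MUTEv5#2 by -1.13 (adjusted p = 0.0132) and than MUTEv5#5 by -1.53 (adjusted p = 0.00121).

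Proteins of unknown function account for 3 of the 22. *AT5G10890* (chromosome 5, 3433742 to 3435287, minus strand) is annotated as myosin heavy chain-like, and its RefSeq note gives the product of *POLAR*, a polarly placed protein of the stomatal lineage, as the best match among Arabidopsis proteins. By nucleotides its best match outside the gene was on chromosome 2, at 76.6% identity over 141 bases. *AT5G10890* held 1.14, 1.67 and 1.34 CPM in MUTE, 2.29, 2.46 and 2.42 in line MUTEv5#2, 2.88, 2.90 and 2.72 in line MUTEv5#5 and 1.34, 1.46 and 1.82 in line MUTEPPP#3. *POLAR* averaged 5.24, 7.82, 11.1 and 4.79 CPM in the same order. Both thus had MUTEPPP#3 near MUTE, and *AT5G10890* had a log2 fold change of -0.88 in MUTEPPP#3 against MUTEv5#5 (adjusted p = 0.00781, SE 0.17). *AT4G30230* averaged 0.755, 1.35, 2.01 and 0.834 CPM and *AT5G01445* 0.922, 1.71, 2.27 and 1.14 CPM, and each was lower in MUTEPPP#3 than in MUTEv5#5 (-1.27 and -0.99, adjusted p = 0.00961 and 0.0132).

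The 3 pseudogenes have near copies elsewhere, and reads may be split among them. *AT1G43590* (chromosome 1, 16414121 to 16414627, plus strand), with the second largest ratio, 8.88, matches chromosome 4 at 94.4% identity over 98.4% of its bases. It held 0.272, 0.172 and 0.256 CPM in MUTE, 0.573, 0.455 and 0.588 in line MUTEv5#2, 2.29, 1.90 and 2.03 in line MUTEv5#5 and 0.636, 0.440 and 0.663 in line MUTEPPP#3. It rose in MUTEPPP#3 over MUTE by 1.31 (SE 0.24, adjusted p = 0.00401), was lower than in MUTEv5#5 by -1.84 (adjusted p = 0.00136), and overlapped MUTEv5#2 (0.11, 95% interval -0.39 to 0.60). *AT5G34800* matches another place on chromosome 4 at 93.8% over 100% of its bases and averaged 1.65, 2.33, 2.95 and 1.34 CPM. *AT3G30214* matches *AT1G35320* at 90.7% over 75.8% of its bases and averaged 4.76, 6.29, 7.44 and 5.24 CPM. Among the protein-coding genes, *AT4G11210* is 85.4% identical to *AT4G11190* over 86.9% of its exonic bases and *AT1G21140* has a copy at 83.8% over 68.9%, which leaves their counts uncertain in the same way.

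In MUTEPPP#3 against MUTE, 5 of the 22 genes rose (*LBD26*, *AT1G43590*, *AT3G56210*, *AT1G21140* and *AT1G75640*) and 1 fell (*AT1G29720*), together 27.3% of the 22, where 24.6% of all genes tested were called (10.7% higher, 13.9% lower). The share called in either direction, 27.3%, is near the background of 24.6%. By direction, 5 of the 22 rose and 1 fell, where more of all genes fell than rose. The median log2 fold change was 0.21 for the 22 and 0.00 for all genes, and 19 of the 22 had a value above 0. A median of 0.00 puts about as many of all genes above 0 as below it. Low MUTE levels were part of the rule, so values above 0 follow in part from the choice. Of the MUTEPPP#3 levels, 6 were above all MUTE libraries, 2 below and 14 overlapped, where 19.2% and 21.5% of all genes were above and below. With library totals as the only scaling, the calls over all genes turned from 2428 higher and 3149 lower to 4789 higher and 1862 lower, the median of all genes moved by 0.17, and 8 of the 22 were called (7 higher, 1 lower).

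Against MUTEv5#2, 1 gene rose (*AT3G56210*) and 5 fell (*AT4G00870*, *AT1G33930*, *EMS1*, *AT1G29720* and *AT5G34800*), 27.3% of the 22, where 2.47% of all genes were called (1.06% higher, 1.40% lower). The median was -0.26, and -0.02 over all genes. These calls lean on a few libraries: without MUTEPPP#3 replicate 2, 0 of the 22 were called, and 40 genes in place of 558 in the whole table. With only those lines in the fit, 1 of the 22 was called. Against MUTEv5#5, 15 of the 22 fell and 0 rose (68.2%), where 15.7% of all genes were called (6.32% higher, 9.38% lower), and the median was -0.87 against 0.00. With library totals as the only scaling that background turned from 1430 higher and 2123 lower to 2004 and 1445. Since the rule took genes that are high in MUTEv5#5 and low in MUTE, lower values against the former and higher values against the latter follow in part from the choice, and nothing is read from these counts. Of the 15 calls, 11 were made in all 20 alternatives; those of *AT5G01210*, *OFP6*, *AT3G30214* and *AT5G01445* were lost in 8, 6, 6 and 1 of them. In all 3 comparisons MUTEPPP#3 is the shared line.

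**Figure D3:**
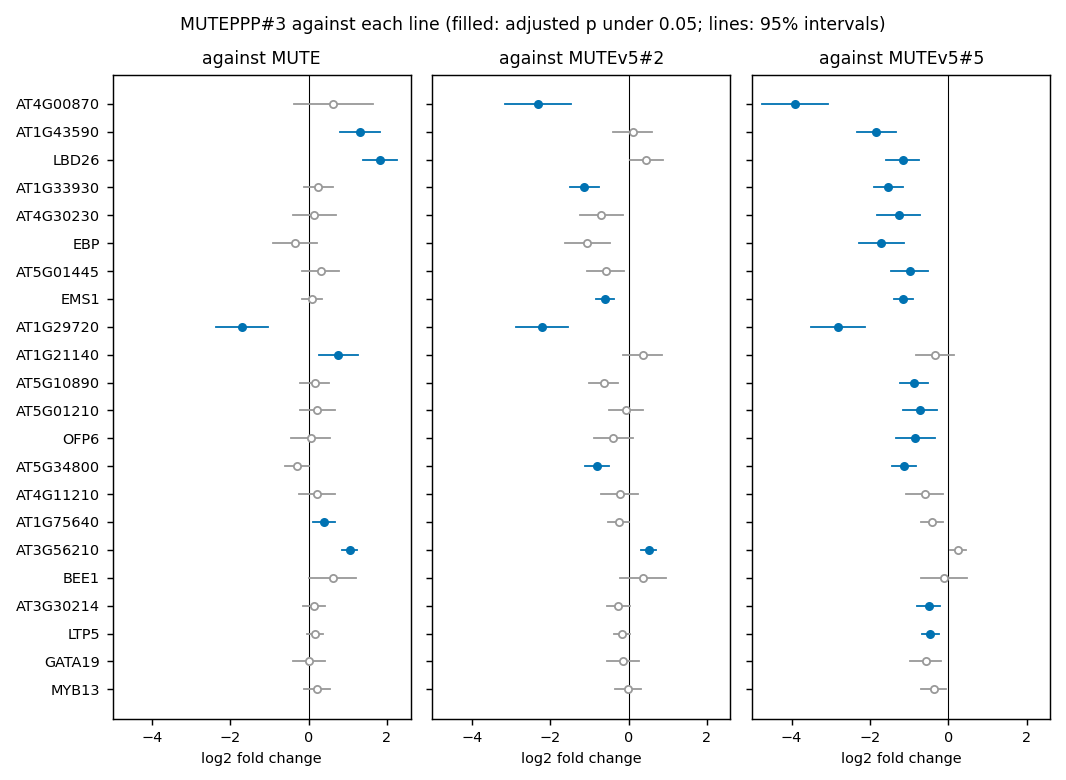
Log2 fold change of MUTEPPP#3 against MUTE, MUTEv5#2 and MUTEv5#5 (horizontal axes) for the 22 stepwise genes, with 95% intervals; filled points had an adjusted p under 0.05. Called genes number 6, 6 and 15, and all 15 in the comparison with MUTEv5#5 lie below 0.

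Of 30 lists of genes with a shared function or cell type, 29 held no stepwise gene and 1, organ polarity and leaf development, held *LBD26*. The removal by name emptied 2 of the 29. Without it the early stomatal lineage list would have held 3 stepwise genes and the list of guard mother cell and symmetric division 1. The lists are not complete: *EBP* and *BEE1*, whose known roles are given above, were in none of them. A stepwise gene outside the lists may thus still have a listed function, that of stomata included. The early stomatal lineage list holds 7 of the 8 genes removed by name, all but *MUTE*, and since these were named in the rule the list is not independent of it. All 7 rose in MUTEv5#5 over MUTE, and 6 of them, all but *ERL1*, in MUTEv5#2. Of the other 12 genes of the list, 0 rose and 1, *SDD1*, fell in either line (median log2 fold change 0.21 in MUTEv5#5 and 0.04 in MUTEv5#2, all genes -0.01 and 0.00). With library totals as the only scaling, *ERL1* was called in MUTEv5#2 and not in MUTEv5#5, and 1 of the 12, *CYCD3;3*, rose in MUTEv5#2. Of all genes, 1.04% were called in MUTEv5#5 (0.314% higher, 0.725% lower) and 5.04% in MUTEv5#2 (1.48% higher, 3.55% lower). In MUTEPPP#3 2 of the 19 genes were higher and 4 lower (median -0.13), where 10.7% of all genes were higher and 13.9% lower. With library totals as the only scaling, these became 4 higher and 1 lower (median 0.04). The list of 15 mature guard cell genes, which also holds the mesophyll peptide gene *EPFL9*, went the other way, with 10 lower and 0 higher in MUTEv5#2 (median -0.89), 8 lower and 0 higher in MUTEv5#5 (median -0.92) and 4 lower and 1 higher in MUTEPPP#3 (median -0.30). Its summed level was 1449 to 1637 CPM in MUTE, 698 to 766 in MUTEv5#2, 554 to 739 in MUTEv5#5 and 1195 to 1343 in MUTEPPP#3. Most of this sum was *TGG1*, a myrosinase gene, at 76.5% to 77.4% of it in MUTE and 56.9% to 68.0% in the MUTEv5 lines. Without *TGG1* the other 14 genes summed to 340 to 376 CPM in MUTE, 235 to 249 in MUTEv5#2, 239 to 270 in MUTEv5#5 and 260 to 286 in MUTEPPP#3. Every MUTE library was above every MUTEv5#2 library and every MUTEv5#2 library above every MUTEv5#5 library in 2 of the 15, the anion channel gene *SLAC1* (means of 2.69, 1.80 and 0.987 CPM) and *MPK12* (9.12, 5.38 and 4.68 CPM), named after their values were seen. The part of cell composition in the stepwise levels was not tested.

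Clock gene lists shifted in MUTEPPP#3 against MUTE, the evening list unevenly between libraries. Of 12 evening genes, 6 rose and 1 fell against MUTE (median 1.58), and of 10 morning genes, 6 fell and 0 rose (median -1.94). In that comparison 10.7% of all genes were higher and 13.9% lower (median 0.00). Summed morning genes were 865 to 1914 CPM in MUTE, 697 to 751 in MUTEv5#2, 903 to 1454 in MUTEv5#5 and 276 to 472 in MUTEPPP#3. MUTE replicate 1 and MUTEv5#5 replicate 1 were the highest, at 1914 and 1454. Summed evening genes were 137 to 285 CPM in MUTE, 156 to 264 in MUTEv5#2 and 113 to 332 in MUTEv5#5. In MUTEPPP#3 replicates 1, 2 and 3 they were 230, 552 and 875 CPM, so replicate 1 lay within the MUTE range. A harvest at another time of day was not tested as a part of the MUTEPPP#3 values.

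**Figure D4:**
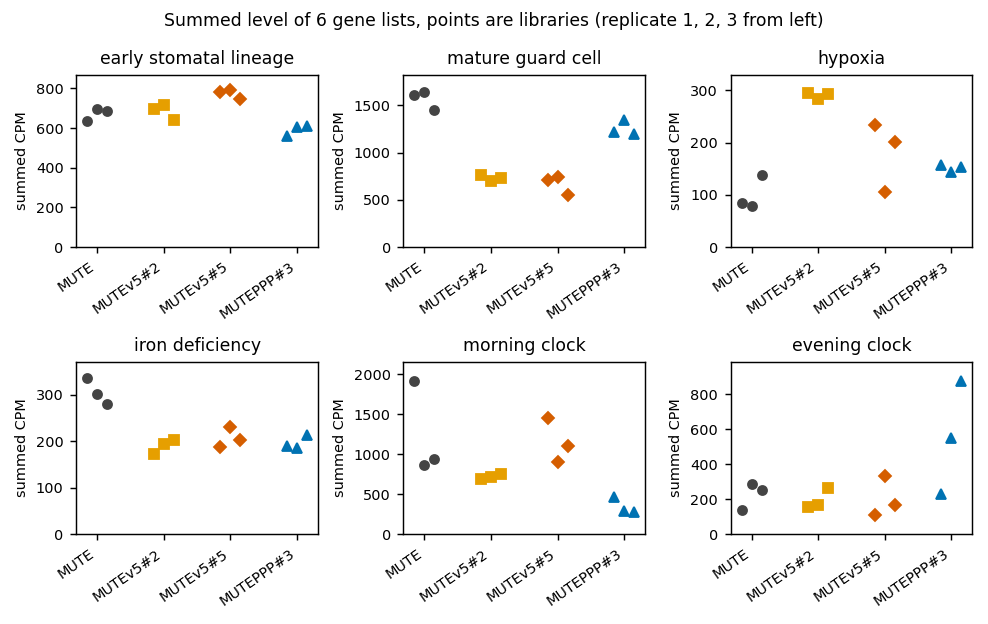
Summed CPM (vertical axes, from 0) of 6 gene lists in each library of the 4 lines, with points for replicates 1, 2 and 3 from left to right. Mature guard cell sums are 1449 to 1637 in MUTE and 554 to 766 in the MUTEv5 lines, and morning clock sums are lowest in MUTEPPP#3, at 276 to 472.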

How the data were processed

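The authors deposited read counts, 1 whole number per gene and library, for 12 libraries made with a stranded mRNA kit. The submitters' processing notes name the TAIR10 build, DESeq2, StringTie 2.1.3b, the aligners HISAT2 2.1.0 and Bowtie2 2.3.4.1, Trimmomatic 0.38 and FastQC; which tool made the counts, and whether strand was used, is not given in the sources used here. Identifiers matched 23071 of 23098 entries to RefSeq genes of TAIR10.1; the other 27 name no gene, held at most 0.000596% of a library and were left out. Genes were tested with edgeR 4.0.16 (R 4.3.3; filterByExpr, TMM, quasi-likelihood test, all 12 libraries in a fit of 4 line means, common biological coefficient of variation 0.215), adjusted by Benjamini-Hochberg over 22636 genes with a threshold of 0.05. Fold changes are log2. CPM use TMM-scaled totals and carry counting and pool-to-pool error. Alternatives used DESeq2 1.42.0, limma-voom (limma 3.58.1), other scalings and filters, and libraries left out. The script was tested on simulated data. Same-numbered libraries of MUTE and MUTEv5#5 deviated together (r = 0.32 to 0.57 in 3 pairs). The numbers thus pair these lines in the data, though no label says why. For MUTE and MUTEv5#2 r was 0.04 to 0.48, above 0.1 in 2 of 3 pairs. For MUTEv5#2 and MUTEv5#5 it was -0.17 to 0.30, above 0.1 in 2 of 3 pairs. A fit with the number as a block was run beside the main one. Near copies were sought with BLAST 2.17.0 and are given by their best match outside the gene. All genes that met the rule are named, with the 2 nearest outside each threshold and those removed by name. Members, gene lists and motifs were chosen with earlier results of these data known.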

Additional observations from a re-analysis of the deposited data

How the results depend on the processing

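The number of stepwise genes, 22, was 24 with RLE scaling (22 shared), 23 with TMM factors from all genes, an alternative chosen after seeing the data (20 shared), and 30 with library totals as the only scaling (15 shared); 14 genes were kept under all 4 scalings, *AT4G00870*, *LBD26*, *EMS1* and *AT1G29720* among them, while *EBP*, *AT1G75640* and *AT3G56210* were lost with library totals. It was 11 at a fold of at least 2, 57 with no fold threshold, 12 at 5 CPM, 25 with no CPM minimum and 230 by the order of means. Leaving out libraries loosens the rule and gave 23 to 112 genes. For MUTEPPP#3 against MUTE, leaving out a library gave 4 to 6 of the 22 called and 2995 to 5666 in the whole table; against MUTEv5#2, 0 to 7 and 40 to 1904, the latter without MUTEPPP#3 replicate 1; against MUTEv5#5, 12 to 16 and 1061 to 4423. With only the compared lines in the fit, whole-table calls were 3231, 129 and 1894 in place of 5577, 558 and 3553, and against MUTEv5#2 1 of the 22 was called; DESeq2 called 2110 genes in that comparison. The cause of these differences was not tested. Of 439 values recomputed for the fold changes of the 22 genes in MUTEPPP#3 against MUTE, 419 kept their side of the threshold, 16 lost a call, 4 gained one, and none that was called turned its sign. In the comparisons with MUTEPPP#3 the replicate numbers do not pair the samples: deviations of same-numbered libraries correlated at r = -0.16 to 0.20, above 0.1 in 1 of 9 pairs. With the replicate number as a block, 6, 7 and 16 of the 22 were called against MUTE, MUTEv5#2 and MUTEv5#5, and 6162, 810 and 4030 genes in all. For the lists, both alternatives were chosen after seeing the data. Hypoxia genes called in MUTEv5#2 against MUTE were 9 in place of 5 with the block and 9 with library totals. Iron deficiency genes in MUTEv5#5 against MUTE were 1 in place of 3 with the block. Early lineage genes in MUTEPPP#3 against MUTE, 2 higher and 4 lower, became 1 higher and 6 lower with the block. With library totals they became 4 higher and 1 lower. Apart from the call of *CYCD3;3* given above, the other list counts given for the early lineage, guard cell, hypoxia and iron genes stayed within 1.5 times. Depth limits *AT4G00870*, at 3 counts in its lowest library; a count of 22 rests on gaps as narrow as 0.0838%.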

Other observations

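The pseudogene *AT5G34800* lies beside 2 further pseudogenes on the same strand of chromosome 5, *AT5G34790* (12966080 to 12968155) and *AT5G34795* (12969220 to 12970879); they were looked at after their values were seen, because each met the stepwise rule when a library was left out. *AT5G34790* held 2.04, 1.92 and 1.25 CPM in MUTE, 2.06, 2.26 and 2.05 in MUTEv5#2, 2.87, 3.19 and 2.26 in MUTEv5#5 and 1.02, 1.12 and 0.850 in MUTEPPP#3. *AT5G34795* averaged 1.24, 1.55, 2.26 and 1.03 CPM in the same order. The mean of each of the 3 loci was lowest in MUTEPPP#3 and highest in MUTEv5#5. By edgeR's test each was lower in MUTEPPP#3 against MUTEv5#5 (log2 fold changes of -1.48, -1.13 and -1.13 for *AT5G34790*, *AT5G34795* and *AT5G34800*, adjusted p = 0.00248, 0.0101 and 0.00136). High MUTEv5#5 levels had a part in the choice of all 3, so these lower values follow in part from it. Against MUTE, *AT5G34790* was called lower in MUTEPPP#3 (-0.80, adjusted p = 0.0183). *AT5G34795* (-0.26, adjusted p = 0.422) and *AT5G34800* (-0.30, adjusted p = 0.138) were not called there. Whether the 3 loci share a transcript or reads with the copy of *AT5G34800* on chromosome 4 was not tested.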
